A study of Homo sapiens with 6 samples.

Results

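Transcripts of 58 genes for ciliary transport and centrosomal proteins were measured in PC9 cells with and without knockdown of RBM10. The genes were taken by symbol alone from the 16306 genes of the deposited table. They comprise 14 genes named IFT and a number, 8 named BBS and a number, and 36 named CEP and a number, with or without a final letter. PC9 cells derive from a human lung adenocarcinoma and carry an activating EGFR deletion. The control group carried a negative control shRNA (sh-NC, 3 libraries), and the knockdown group carried an shRNA against the splicing regulator RBM10 (shRBM10, 3 libraries). All libraries were made from total RNA of PC9 cells, and no further treatment is given for either group. The study's methods list 2 shRNAs against RBM10. The titles of the shRBM10 samples carry the numbers 1, 2 and 3 and their table columns all carry the number 1, and nothing says whether these numbers name an shRNA. The labels call the samples of a group biosamples, and the methods state in general that experiments were repeated independently. They do not say for these libraries whether the knockdown group is 1 clone or a pool, or whether the libraries of a group came from separate cultures. The p-values therefore measure the spread between these samples, which may be technical.

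A primary cilium is a microtubule-based antenna that grows from the mother centriole of a cell that is not dividing. Intraflagellar transport (IFT) proteins form the IFT-A and IFT-B complexes, which carry cargo along the axoneme with kinesin-2 towards the tip and with dynein-2 towards the base. The proteins named for Bardet-Biedl syndrome (BBS) include subunits of the BBSome, an adaptor that moves membrane proteins in and out of the cilium, and chaperonin-like proteins needed to assemble it. The CEP genes share a name rather than a fold. Their products sit in the centrioles, in the appendages that dock the mother centriole to the membrane, in the pericentriolar material, in centriolar satellites or at the midbody. Many ciliary genes carry near their start an X-box, the imperfect inverted repeat bound by RFX transcription factors.

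The X-box was searched for in the members' promoters because the members with the largest differences came from all 3 families. RefSeq promoters of 300 bases on GRCh38.p14 (250 before to 50 after a start) were matched to 52 of the 58 genes, as 63 promoters. Those with no entry included IFT22, BBS9, CEP78, CEP170B and CEP250. The X-box arm GTTGCC was found on either strand in 22 of the 63 promoters (34.9%), against 12.2% of all 35116 promoters of the same length. By promoter, it was found in 7 of 15 for the IFT genes (46.7%), 3 of 7 for the BBS genes (42.9%) and 12 of 41 for the CEP genes (29.3%). Counted by gene, it was present in 6 of 13 IFT genes, 3 of 7 BBS genes and 11 of 32 CEP genes. A stricter pattern with both arms, GTNNCCNNGGNNAC, which reads the same on both strands and overlaps the first motif where its first arm is GTTGCC, was found in 5 of 63 promoters (7.94%) and in 2.08% of all promoters. The genes with that pattern were IFT57, CEP85, CEP112, CEP135 and CEP192. Over all 52 members with a promoter, 20 held GTTGCC when counted by gene. The share by gene over all genes is not given here, and a gene with several promoters had more places for a match. Of the 10 genes described below as higher, 9 had a promoter, and 6 of these held GTTGCC. Their sites are shown so that the shared arm and its surroundings can be compared. Each line is read 5′ to 3′ in the direction of the gene, and the capitals mark GTTGCC or its reverse complement GGCAAC.
IFT74 (chr9:26956372-26956401): tatcccgcccccGTTGCCgggatacgccgc
IFT74 (chr9:26946861-26946890): caacacagccggGGCAACccgactcccagc
IFT81 (chr12:110124345-110124374): ggcctagcaaccGTTGCCaaggagctcgac
IFT88 (chr13:20567161-20567190): gattccgcgcttGGCAACggctcggcgtcg
BBS10 (chr12:76348619-76348648): gaggggcttaggGTTGCCgctccaggcaca
CEP97 (chr3:101724635-101724663): cgcgggaggacgGTTGCCtggtattatta
CEP112 (chr17:66192282-66192311): gagcgtcgccatGGCAACggggccgcgcgc
CEP112 (chr17:66192171-66192200): gaacgtcgccatGGCAACcgcaccgcaggc
CEP112 (chr17:65826635-65826664): tttcgtcatactGTTGCCttgtccctaagt
The arm began 28 bases before the start in one IFT74 promoter and 237 before it in the other, at the start itself in IFT81, 16 bases after it in IFT88, and 33 after it in CEP97. In BBS10 it began 221 bases before the start, and in CEP112 at 166 and 55 bases before one start and 201 before another. A match to these letters is a description of the sequence, and binding was not measured. Whether the arm goes with higher counts was not tested.

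The total estimated count per library ranged from 16606401 to 18864241. RBM10 (Entrez gene 8241, chrX:47144869-47186813), the targeted gene, had normalized counts of 1419, 1173 and 1457 in sh-NC replicates 1, 2 and 3 and 532, 510.1 and 667 in shRBM10 libraries A, B and C, and every shRBM10 library was below every sh-NC library. Its log2 fold change was -1.24 ± 0.23 (SE), and the exact permutation test gave p = 0.1, the smallest value that 3 against 3 libraries allow. Libraries within each group were not alike. The normalization factor of sh-NC replicate 2 was 0.738, against 1.03 to 1.08 in the other 5 libraries, and library C was below both libraries A and B in 43 of the 58 genes. The share of all genes with that order of libraries is not given here. An extraction protocol for retinas stands in the labels, whose other fields all give PC9. The 5 epithelial markers, EPCAM, CDH1 and 3 keratins, were all measured, with log2 fold changes from -0.61 to 0.40 (1 above 0, 4 below) and 0 at an unadjusted p under 0.05 in edgeR. Their summed normalized count was 832944 in sh-NC replicate 2, against 445430 and 438253 in replicates 1 and 3 and 345860 to 513321 in shRBM10. EPCAM was at 5916 ± 243 in sh-NC against 5626 ± 569 in shRBM10 (SD, n = 3 each), while PTPRC of leukocytes, PECAM1 and KDR of endothelium, and COL1A2 and COL3A1 of fibroblasts had at most 7 counts in any library. The endothelial markers CDH5 (133 ± 43.6 in sh-NC against 51.3 ± 9.45 in shRBM10) and VWF (18.4 ± 5.09 in sh-NC against 7.4 ± 2.00 in shRBM10) were detected. Both had an unadjusted p under 0.05 and a log2 fold change under -1 in edgeR, as 1.53% of all genes did. With GC and length correction, described below, both still did, as did 2.08% of all genes. COL1A1, CD14 and CD68 of the fibroblast and leukocyte lists were also detected, and the part of other cells in the results was not tested.

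Before correction for GC content, more of the ciliary and centrosomal genes lay higher than lower in shRBM10. Of the 58 genes, 42 had a log2 fold change above 0 (72.4%) and 16 below, against 51.6% above 0 among all 12620 genes tested. With GC correction, described below, 29 of the 58 lay above 0, against 5764 of the 12620 genes tested. With GC and length correction the count was also 29 of the 58, against 5925 of all genes. A change in the share of cells with a transcript and a change in the amount per cell cannot be told apart in these bulk samples. All 58 passed edgeR's filter on low counts, and their estimated counts ranged from 3 to 1953 per library. When an adjusted p below 0.05 and a log2 fold change beyond 1 in size were both required (edgeR's quasi-likelihood test, Benjamini-Hochberg over all genes tested), 0 members were called, against 2 genes in all (0.0158%). A less strict rule took an unadjusted p below 0.05 and kept the fold limit. Under it 10 members were higher (17.2%) and 0 were lower. Of all genes tested, 10.1% were higher and 1.53% were lower by it. The 10 members were IFT74, IFT80, IFT81 and IFT88, then BBS9, BBS10 and BBS12, then CEP97, CEP112 and CEP192. Their adjusted p lay between 0.135 and 0.178 in edgeR. For the 6 of them whose groups did not overlap (IFT74, IFT80, IFT81, BBS10, BBS12 and CEP112), the two-sided exact permutation test gave its smallest p, 0.1. DESeq2 called 2 of them at an adjusted p under 0.05, IFT74 with 0.0162 and IFT80 with 0.0499, where it called 4.64% of the 12374 genes to which it gave an adjusted p (3.64% as higher). An unadjusted p under 0.05 at any fold was reached by 14 members, close to the share among all genes (24.3%).

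The 3 families differed in their middle values. The median log2 fold change was -0.05 for the IFT genes (7 above 0, 7 below), 0.61 for the BBS genes (6 above, 2 below) and 0.44 for the CEP genes (29 above, 7 below), and it was 0.03 over all genes tested. The sign of the IFT and CEP medians, but not of the BBS median, turned in some of the alternative fits, among them the GC and length correction described below. In 11 members (19.0%) the lowest shRBM10 library was above the highest sh-NC library, against 13.8% of all genes tested. In 0 members was the highest shRBM10 library below the lowest sh-NC library, against 16.2% of all genes. The 11 were IFT57, IFT74, IFT80, IFT81, IFT172, BBS2, BBS10, BBS12, CEP63, CEP112 and CEP290.

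**Figure D1:**
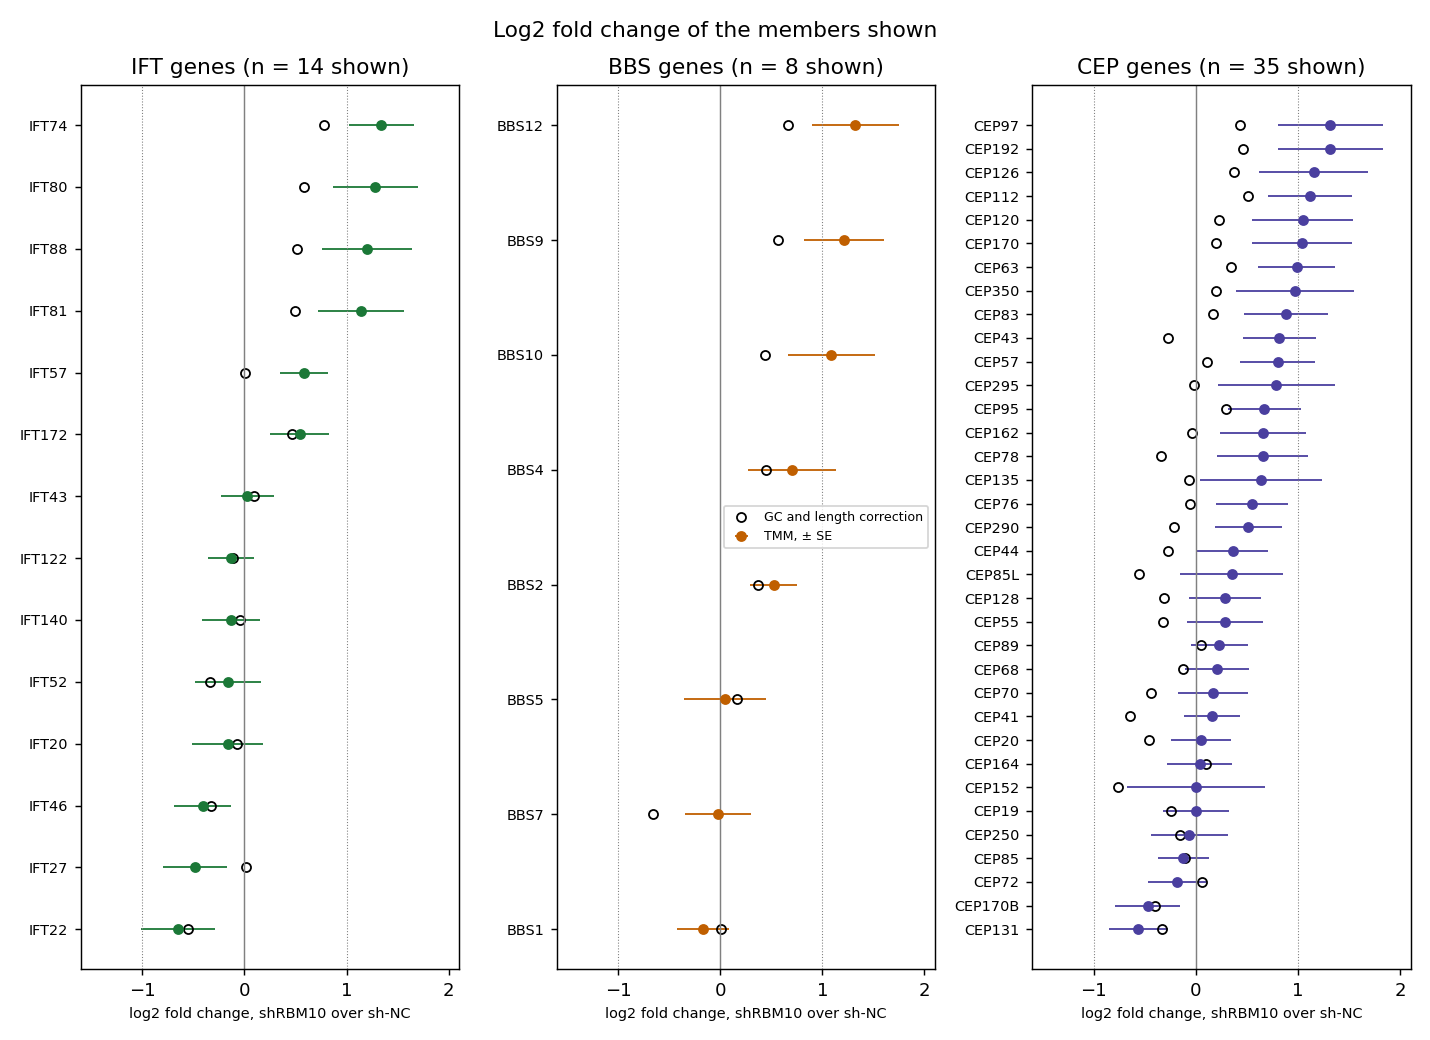
Log2 fold change of shRBM10 over sh-NC (horizontal axis) for 57 of the 58 genes in 3 panels by family. Filled points with bars are the TMM-normalized edgeR estimate ± SE (3 libraries per group) and open circles are the estimate after GC and length correction. IFT genes divide into 6 above 0.5 and 8 at or below 0.03, and most open circles of the CEP genes lie left of the filled points.

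Within the IFT family, 4 of 14 genes were higher under the unadjusted rule, against 10.1% of all genes tested. All 4 belong to IFT-B, as do most genes of the family (7 core and 4 peripheral, against 3 of IFT-A). The rule was also passed by 2 of 3 IFT-A subunits with other names, described below. Normalized counts, which are counts divided by each library's TMM-scaled size, are given throughout. IFT74 (Entrez gene 80173, chr9:26947039-27062930, plus strand), which pairs with IFT81 in a module that binds tubulin, had normalized counts of 57.5, 51.6 and 68.9 in sh-NC replicates 1, 2 and 3 and 177, 171 and 105 in shRBM10 libraries A, B and C. All 3 shRBM10 libraries were above all 3 sh-NC libraries, and the 3 sh-NC libraries lay close together. The means were 59.3 ± 8.79 in sh-NC against 151 ± 40.1 in shRBM10 (SD, n = 3 each), and the log2 fold change was 1.34 ± 0.32 (SE) with an adjusted p of 0.135 in edgeR. IFT81 (Entrez gene 28981, chr12:110124335-110218797, plus strand) had normalized counts of 62.0, 24.4 and 63.5 in sh-NC replicates 1, 2 and 3 and 142, 121 and 72.4 in shRBM10 libraries A, B and C. The groups did not overlap, although library C exceeded sh-NC replicate 3 by little. IFT81 was 2.21-fold higher, a log2 fold change of 1.14 ± 0.42.

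IFT88 (Entrez gene 8100, chr13:20567069-20691437, plus strand), the IFT-B core subunit whose loss is a standard way to remove cilia, had normalized counts of 54.8, 21.7 and 49.2 in sh-NC replicates 1, 2 and 3 and 130.3, 109 and 53.3 in shRBM10 libraries A, B and C. Libraries A and B were above every sh-NC library, while library C fell between sh-NC replicates 1 and 3. Its means were 41.9 ± 17.7 in sh-NC against 97.6 ± 39.8 in shRBM10, and the log2 fold change was 1.20 ± 0.44. IFT80 (Entrez gene 57560, chr3:160256986-160399880, minus strand), a peripheral IFT-B subunit, had normalized counts of 107, 52.9 and 124 in sh-NC replicates 1, 2 and 3 and 292, 271 and 133 in shRBM10 libraries A, B and C. The groups did not overlap, and library C exceeded sh-NC replicate 3 by less than the sh-NC replicates differed among themselves. Its means were 94.8 ± 37.2 in sh-NC against 232 ± 86.2 in shRBM10, a log2 fold change of 1.28 ± 0.41. The IFT80 locus also gives rise to a readthrough transcript with the neighbouring gene TRIM59, and how shared reads were divided is not stated.

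The other IFT-B subunits did not pass the rule. Of the 7 members of the IFT-B core, the 4 others had log2 fold changes of -0.16 (IFT52), -0.41 (IFT46), -0.48 (IFT27, a small GTPase) and -0.65 (IFT22, also a small GTPase). IFT52 joins the IFT88 side of the core to the IFT74 and IFT81 side. It had normalized counts of 1106, 2493 and 1129 in sh-NC against 1462, 1489 and 1279.8 in shRBM10. Replicate 2 of sh-NC was far above every other library, and library C and sh-NC replicates 1 and 3 lay under libraries A and B. In the peripheral group, IFT57 had normalized counts of 648, 539 and 711 in sh-NC against 999, 1056 and 789 in shRBM10 and IFT172 had 243, 144 and 243 in sh-NC against 326, 297 and 295 in shRBM10. Both had all shRBM10 libraries above all sh-NC libraries, with log2 fold changes of 0.58 ± 0.24 and 0.54 ± 0.29, under the fold limit. With the GC correction IFT57 had a log2 fold change of -0.08. IFT20, which also works at the Golgi, had a log2 fold change of -0.16.

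The 3 IFT-A members, which serve the return journey and the entry of membrane proteins, differed by less than their standard errors between groups. IFT43 had normalized counts of 1425, 2218 and 1283 in sh-NC against 1529.8, 1812 and 1685 in shRBM10, and sh-NC replicate 2 was above all other libraries. Its log2 fold change was 0.03 ± 0.26. IFT122 and IFT140 had log2 fold changes of -0.13 ± 0.22 and -0.13 ± 0.28. Per transcript length, IFT43 was the most abundant of the 58 genes, with an authors' mean TPM of 169 in sh-NC and 211 in shRBM10. The authors' mean TPM was 57.7 in sh-NC and 66.8 in shRBM10 for IFT52 and 1.64 in sh-NC and 4.53 in shRBM10 for IFT74, and the 4 genes that were higher had the lowest values of the family in sh-NC.

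**Figure D2:**
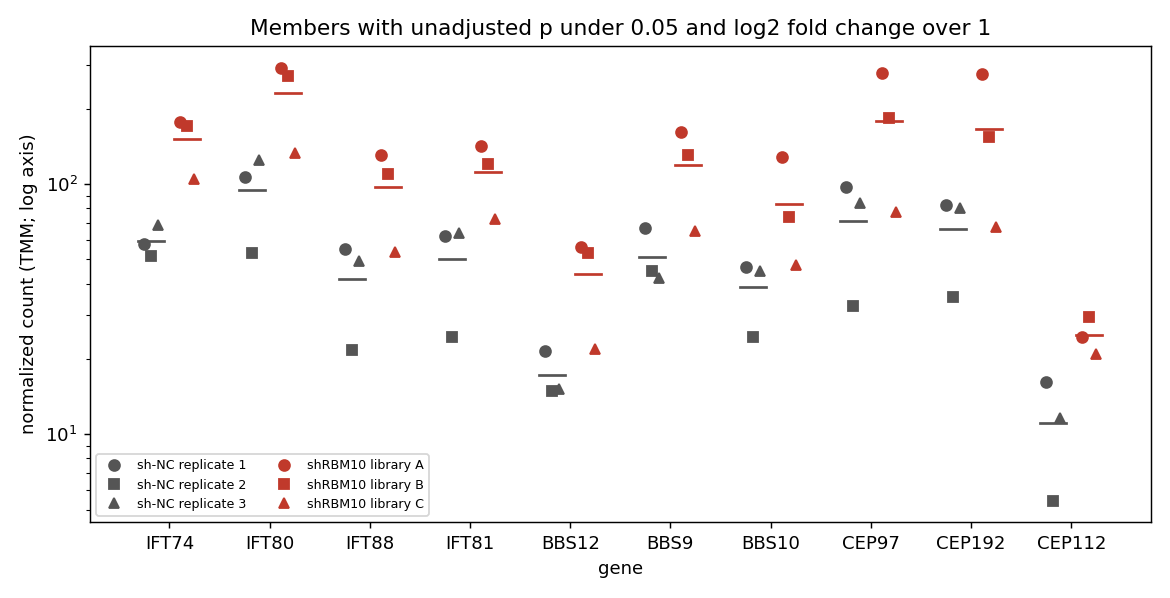
Normalized count per library (TMM, log axis) for the 10 genes with an unadjusted p under 0.05 and a log2 fold change over 1. Grey symbols are sh-NC replicates 1 to 3, red symbols are shRBM10 libraries A to C and horizontal lines are group means. Libraries A and B lie above every sh-NC library in all 10 genes, and library C is the lowest of the shRBM10 libraries in all 10. Among all 58 genes, libraries A and B are above every sh-NC library in 34, and library C is below both in 43.

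Among the BBS genes, 3 of 8 were higher under the unadjusted rule, against 10.1% of all genes tested. They were both chaperonin-like members with a BBS symbol and 1 subunit of the BBSome. MKKS, a chaperonin-like gene not named BBS, is in a list of 7 genes described below, of which 0 passed the rule. With GC and length correction MKKS was lower by the rule. BBS12 (Entrez gene 166379, chr4:122732702-122744943, plus strand) had normalized counts of 21.6, 14.9 and 15.2 in sh-NC replicates 1, 2 and 3 and 56.0, 53.2 and 21.9 in shRBM10 libraries A, B and C. Libraries A and B were well above sh-NC, and library C was above sh-NC replicate 1 by so little that the groups barely separated. BBS12 had a log2 fold change of 1.32 ± 0.42, from means of 17.2 ± 3.76 in sh-NC against 43.7 ± 18.9 in shRBM10 (SD, n = 3 each), and the adjusted p was 0.156 in edgeR. BBS10 (Entrez gene 79738, chr12:76344474-76348442, minus strand) had normalized counts of 46.8, 24.4 and 44.7 in sh-NC replicates 1, 2 and 3 and 128, 74.1 and 47.6 in shRBM10 libraries A, B and C. The groups did not overlap, but library C exceeded sh-NC replicate 1 by little. BBS10 had a log2 fold change of 1.09 ± 0.43, from means of 38.6 ± 12.3 in sh-NC against 83.3 ± 41.1 in shRBM10.

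BBS9 (Entrez gene 27241, chr7:33129244-33606068, plus strand), which forms part of the structural core of the BBSome, had normalized counts of 66.5, 44.8 and 42.0 in sh-NC replicates 1, 2 and 3 and 161, 131 and 64.8 in shRBM10 libraries A, B and C. Libraries A and B were above all of sh-NC, and library C was just under sh-NC replicate 1. BBS9 had a log2 fold change of 1.21 ± 0.39, from means of 51.1 ± 13.4 in sh-NC against 119 ± 49.2 in shRBM10. BBS2, the most abundant BBS gene by mean count, had 804, 739.9 and 823 in sh-NC against 1281, 1231 and 888 in shRBM10. Its groups did not overlap, and the difference was smaller, with a log2 fold change of 0.52 ± 0.23 and an unadjusted p of 0.048 in edgeR. BBS4, a subunit that links the BBSome to centriolar satellites, had 79.1, 189 and 89.5 in sh-NC against 248, 221 and 109 in shRBM10. Libraries A and B were above sh-NC, but sh-NC replicate 2 was above library C. BBS4 did not pass the test, with a log2 fold change of 0.70 ± 0.43. BBS1, the subunit that contacts the small GTPase ARL6, had 706, 460.2 and 594 in sh-NC against 492, 491 and 587 in shRBM10, with every shRBM10 library inside the range of sh-NC and a log2 fold change of -0.17 ± 0.25. BBS5 and BBS7 had log2 fold changes of 0.04 and -0.02.

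Of the 36 CEP genes, 3 were higher and 0 lower under the unadjusted rule, against 10.1% and 1.53% of all genes tested. The CEP genes were described by the place where their proteins act. A group of 14 covers centriole assembly and length, pericentriolar material and centriolar satellites. In this group 2 were higher and 0 were lower, 11 lay above 0, and the median log2 fold change was 0.59. CEP97 (Entrez gene 79598, chr3:101723925-101770562, plus strand), which caps the distal end of the centriole together with CCP110 and so restrains cilium growth, had normalized counts of 97.1, 32.6 and 84.1 in sh-NC replicates 1, 2 and 3 and 278, 183 and 77.1 in shRBM10 libraries A, B and C. Libraries A and B were above all of sh-NC, whereas library C was below sh-NC replicates 1 and 3. The log2 fold change of CEP97 was 1.32 ± 0.52, from means of 71.3 ± 34.1 in sh-NC against 179 ± 100.4 in shRBM10 (SD, n = 3 each), with an adjusted p of 0.178 in edgeR. CEP192 (Entrez gene 55125, chr18:12991362-13125052, plus strand), a scaffold of the pericentriolar material that recruits PLK4 and Aurora A, had normalized counts of 82.7, 35.3 and 80.5 in sh-NC replicates 1, 2 and 3 and 276, 155 and 67.6 in shRBM10 libraries A, B and C. The same order of libraries was seen as for CEP97. Means of 66.2 ± 26.8 in sh-NC against 166 ± 105 in shRBM10 gave a log2 fold change of 1.31 ± 0.51.

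CEP63, which recruits CEP152 to the centriole for its duplication, had 125, 52.9 and 119.9 in sh-NC against 234, 218 and 142 in shRBM10. Its groups did not overlap, and its log2 fold change of 0.99 ± 0.38 lay just inside the limit of 1. CEP290, a transition zone protein that gates the cilium, had 97.1, 52.9 and 99.3 in sh-NC against 120.1, 134 and 104 in shRBM10. Its groups did not overlap either, and the log2 fold change was 0.51 ± 0.33 with an unadjusted p of 0.147 in edgeR, turning to -0.21 after GC and length correction. CEP152, the receptor of PLK4, had 36.0, 4.07 and 25.9 in sh-NC against 29.5, 29.4 and 9.52 in shRBM10. Counts were very low in sh-NC replicate 2, the ranges of the groups overlapped, and the log2 fold change was 0.00 ± 0.68. CEP131, a centriolar satellite protein, had the lowest log2 fold change of the family, at -0.56 ± 0.29.

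The 6 appendage genes included 0 that passed the rule, by which 10.1% of all genes tested were higher and 1.53% lower. Their log2 fold changes ran from -0.47 to 1.04. CEP164, the distal appendage protein that recruits TTBK2 at the onset of cilium growth, had 341, 191 and 319 in sh-NC against 323, 217 and 335 in shRBM10. The ranges of the groups overlapped almost entirely, and the log2 fold change was 0.04 ± 0.32. CEP170B, a paralog of the subdistal appendage protein CEP170, had 1329.8, 699 and 1285 in sh-NC against 618, 693 and 1082 in shRBM10. Libraries A and B were below all of sh-NC, and library C lay within it. The log2 fold change of CEP170B was -0.47 ± 0.32. CEP170 had 146, 47.5 and 144 in sh-NC against 340.0, 237 and 122 in shRBM10, with a log2 fold change of 1.04 ± 0.49 and an unadjusted p of 0.0588 in edgeR, and reads from its near-identical pseudogene cannot be told apart here. CEP68 and CEP250, which hold the centrosomes together until mitosis, had log2 fold changes of 0.20 and -0.06. CEP55, which brings the abscission machinery to the midbody, had 209.5, 167 and 231 in sh-NC against 311, 302 and 126 in shRBM10. Libraries A and B were the highest and library C the lowest of all 6, and the log2 fold change was 0.28 ± 0.37.

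Among the other 13 CEP genes, 11 lay above 0, against 51.6% of all genes tested. Of the 13, 1 passed the rule as higher, against 10.1% of all genes. CEP112 (Entrez gene 201134, chr17:65635538-66192084, minus strand), a coiled-coil protein of the centrosome, had normalized counts of 16.2, 5.43 and 11.6 in sh-NC replicates 1, 2 and 3 and 24.4, 29.4 and 20.9 in shRBM10 libraries A, B and C. All shRBM10 libraries were above all sh-NC libraries, at counts that were low in every library. The log2 fold change of CEP112 was 1.12 ± 0.41, from means of 11.1 ± 5.4 in sh-NC against 24.9 ± 4.27 in shRBM10 (SD, n = 3 each). CEP126 had a log2 fold change of 1.15 ± 0.54, over the limit, but an unadjusted p of 0.0579 in edgeR. CEP20, which takes part in cilium growth and is the CEP gene with the highest authors' mean TPM (29.3 in sh-NC and 37.8 in shRBM10), had 809, 1432 and 839 in sh-NC against 1211, 1185 and 788 in shRBM10. The highest library was sh-NC replicate 2, the groups overlapped, and the log2 fold change was 0.05 ± 0.29.

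**Figure D3:**
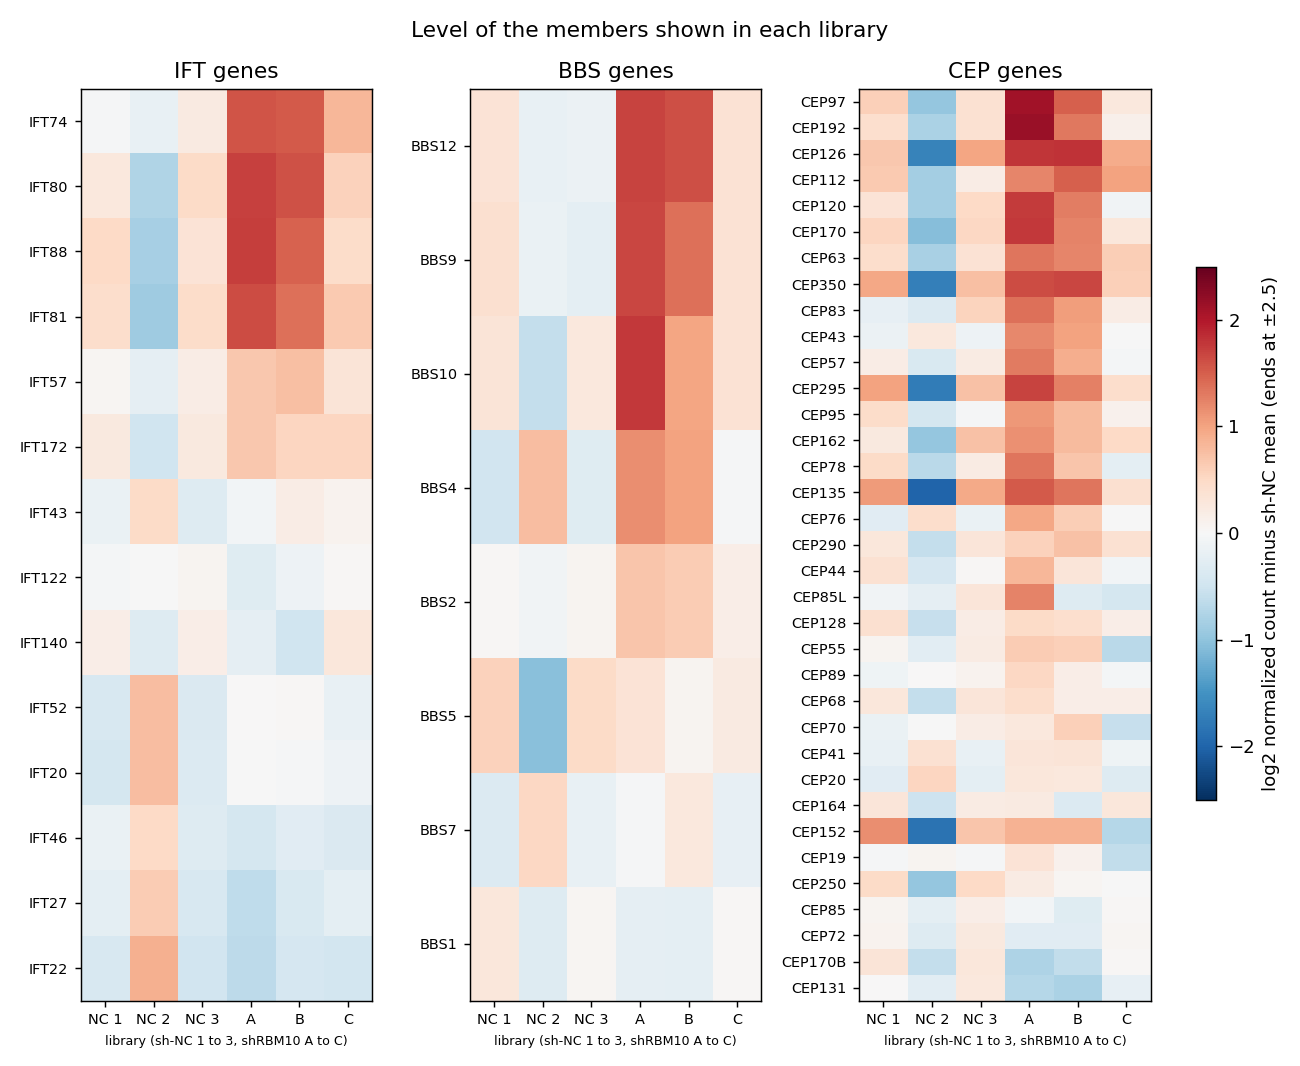
Colour map of log2 normalized count minus the gene's sh-NC mean (red higher, blue lower, scale ending at ±2.5) for 57 of the 58 genes in rows and the 6 libraries in columns. Values range from -1.99 to 2.15. In the CEP panel sh-NC replicate 2 is blue for many genes, and libraries A and B are redder than library C.

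Levels differed between libraries of the same group. In sh-NC replicate 2, 19 of the 58 genes were more than 2-fold under the mean of replicates 1 and 3 (15 CEP, 3 IFT and 1 BBS), and 4 were more than 2-fold over it (IFT20, IFT22, IFT52 and BBS4). The lowest were CEP135 (log2 difference of -2.99), CEP152 (-2.78), CEP295 (-2.62), CEP350 (-2.58) and CEP126 (-2.51). Replicate 2 was the lowest of all 6 libraries in 35 genes and the highest in 9. The shares of all genes with such differences are not given here, so these counts may describe the whole library. Across the 58 genes, the log2 difference of replicate 2 from replicates 1 and 3 had a Spearman correlation of -0.62 with the length of the longest coding transcript. This is a description over genes of the same 3 libraries. The median level against the sh-NC mean (log2) was 0.32, -0.58 and 0.27 in sh-NC replicates 1 to 3 for the CEP genes, and 0.92, 0.65 and 0.04 in libraries A to C. For the IFT genes it was -0.04, -0.10 and 0.12 in sh-NC and -0.0036, 0.11 and 0.18 in shRBM10, with library C the highest. For the BBS genes it was 0.31, -0.17 and -0.06 in sh-NC and 0.93, 0.82 and 0.20 in shRBM10. Over all genes tested it was -0.006, 0.007 and 0.002 in sh-NC and 0.05, 0.01 and 0.03 in shRBM10. Of the 10 genes that were higher, 9 had their lowest sh-NC value in replicate 2, and in 6 library C was above every sh-NC library. Without sh-NC replicate 2, 4 members passed the unadjusted rule as higher (1 IFT, 3 BBS and 0 CEP), against 4.81% of all genes tested, and 0 were lower, against 1.54%. In that fit the 10 genes had log2 fold changes from 0.74 to 1.17, and 0 members were called at an adjusted p, against 0.18% of all genes.

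Log2 fold changes also moved with base composition. GC content of the longest coding transcript was under 45% in 35 members (60.3%), against 35.3% of the tested genes with a value. Of these 35, 33 had a log2 fold change above 0 and 10 were higher under the unadjusted rule (28.6%), where 23.5% of all tested genes of that GC content were. Their median log2 fold change was 0.80, against 0.67 for all such genes. Of the 23 members with a GC content of 45% or more, 9 lay above 0 and 0 were higher, where 2.74% of all such genes were. Their median was -0.09, against -0.20 for all such genes. The GC content of the 10 genes that were higher lay between 36.2% and 42.6%. Over the 58 genes, Pearson's r between log2 fold change and GC content was -0.68 and Spearman's rho was -0.64, a description over genes that share 6 libraries.

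When each library's trend with GC content, or with GC content and transcript length, was removed, 0 members passed the unadjusted rule in either direction. Of all genes tested, 2.19% were then higher and 2.49% lower with the GC correction, and 2.27% were higher and 2.08% lower with both. At an adjusted p, 0 members were called with either correction, against 0.0396% of all genes with the first and 1.32% with both. All 10 genes, which were chosen for a log2 fold change over 1 before correction, still had one above 0. It lay between 0.37 and 0.61 with the GC correction and between 0.43 and 0.78 with both. The sign is no independent check, since the same libraries were used. IFT74 kept the highest, at 0.78 with both corrections, and BBS12 followed at 0.67. The family medians with both corrections were 0.01 for IFT, 0.40 for BBS and -0.09 for CEP. The sign of the log2 fold change turned in 19 of the 58 genes with both corrections, and in 32 in at least one of the alternative fits. What lies behind the trends with GC content and length was not tested.

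**Figure D4:**
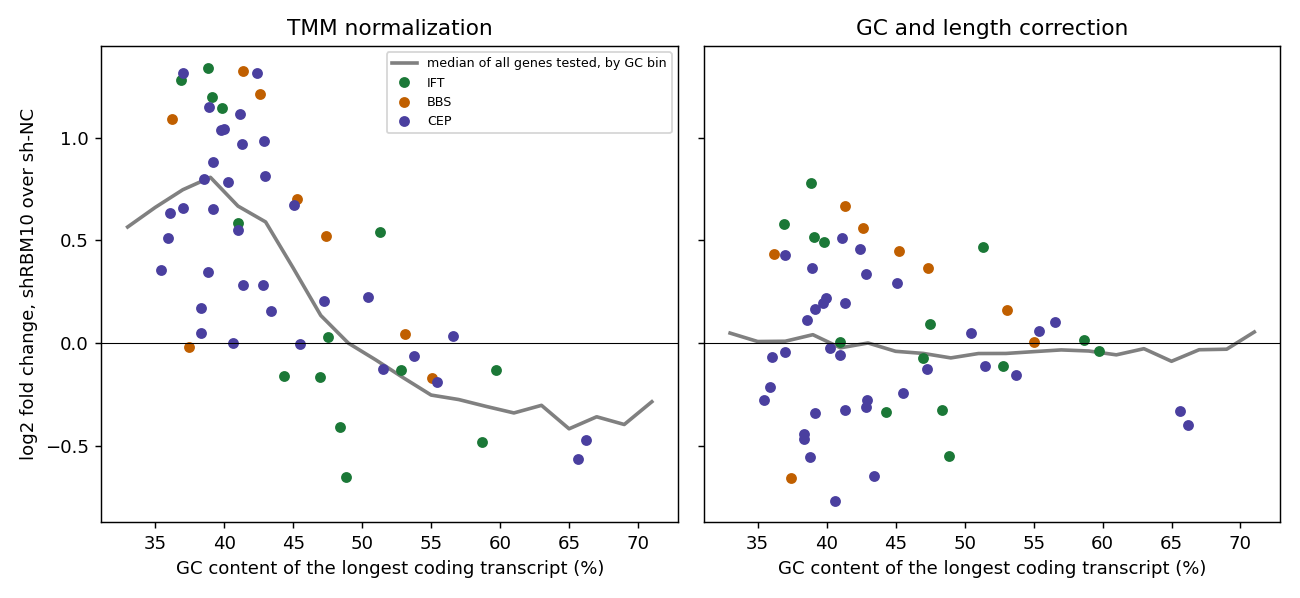
Log2 fold change of shRBM10 over sh-NC against GC content of the longest coding transcript (%) for 57 of the 58 genes (points coloured by family), with TMM normalization in the left panel and after GC and length correction in the right panel. The grey line is the median of all tested genes by GC bin. In the left panel the 10 genes past the unadjusted rule lie at a GC content of 36.2% to 42.6%, where the grey line is also above 0, and in the right panel the grey line is close to 0 throughout.

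Because RBM10 regulates splicing, the share of each transcript within its gene was compared apart from the gene's level. At least 2 transcripts could be tested in 44 members. At an adjusted Simes p under 0.05 (edgeR's diffSpliceDGE), 0 members were called, against 8 of 8348 genes (0.0958%). The lowest adjusted p of a member was 0.940. Without adjustment, 1 member reached a p under 0.05, against 2.74% of all genes. It was CEP131, with an unadjusted Simes p of 0.0192 in edgeR. The gene-level F test of the same tool also called 0 members. Of the estimated counts of transcripts, 41.1% were whole numbers, and how reads shared by transcripts were assigned is not stated.

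Other genes of the same machinery were counted under the unadjusted rule, by which 10.1% of all genes tested were higher and 1.53% lower. Among IFT-A subunits with other names, 2 of 3 were higher. The median GC content of these 3 genes was 39.8%, and 23.5% of all tested genes under 45% were higher. WDR19, also known as IFT144, had 124, 82.8 and 134 in sh-NC against 544, 369 and 134 in shRBM10. Libraries A and B were far above sh-NC, and library C was level with sh-NC replicate 3. Its log2 fold change was 1.61 ± 0.47. TTC21B (IFT139) had 22.5, 17.6 and 25.9 in sh-NC against 101, 50.3 and 15.2 in shRBM10 and a log2 fold change of 1.31 ± 0.58, with library C below every sh-NC library. WDR35 had a log2 fold change of 0.69.

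Of 6 other IFT-B subunits, 8 motor subunits and 7 further BBSome, chaperonin and regulator genes, 0 passed the rule in either direction. Their medians were 0.44, 0.60 and 0.34. KIF3B, a motor subunit of kinesin-2, had 453 ± 248 in sh-NC against 868 ± 245 in shRBM10 and a log2 fold change of 0.93 ± 0.44. DYNC2I2, an intermediate chain of dynein-2, had 2983 ± 930.2 in sh-NC against 1701 ± 369 in shRBM10 and a log2 fold change of -0.81 ± 0.28. These 2 genes had log2 fold changes of opposite sign, and neither passed the fold limit. Among 20 transition zone genes, 1 was higher and 0 were lower, and the median was -0.22.

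Of 36 centriole and centrosome genes not named CEP, 4 were higher and 1 was lower, near the shares among all genes (10.1% and 1.53%), with a median of 0.53. The higher genes were CCDC14 (log2 fold change of 1.48 ± 0.51), a satellite protein, KIAA0586 (1.28 ± 0.47), needed for centriole maturation, NEDD1 (1.16 ± 0.43), which brings the γ-tubulin ring complex to the centrosome, and OFD1 (1.02 ± 0.43), which limits centriole length. The lower gene was TUBGCP2, a core subunit of the γ-tubulin ring complex, with 1147 ± 113 in sh-NC against 572 ± 70.5 in shRBM10, a log2 fold change just past the limit of -1. CCP110, the partner of CEP97, had a log2 fold change of 0.51 ± 0.57 and did not pass. Of 10 regulators of cilium disassembly and length, 1 was higher, KIF2A, a microtubule-depolymerizing kinesin, with a log2 fold change of 1.14 ± 0.46. AURKA, which starts cilium disassembly, had -0.54. With GC and length correction, 0 genes of these 7 lists were higher by the rule and 3 were lower (MKKS, TMEM237 and SCLT1), where 2.27% of all genes were higher and 2.08% lower.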

How the data were processed

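RNA-seq of 6 PC9 libraries was analysed, 3 with sh-NC and 3 with shRBM10. The submitters' processing notes name the genome build hg38. The aligner, the counting tool, the strand setting and the annotation are not given in the sources used here. The authors deposited estimated counts for 16306 genes and 76563 transcripts, of which 87.5% and 41.1% are whole numbers. The authors' mean TPM per group was used for levels per length only. The 24 and 26 remaining value columns of the gene and transcript tables, which include FPKM, TPM and normalized values per library and group means, were not used. Column names matched the titles of the sh-NC replicates and of shRBM10 replicate 1 (library A). The columns of libraries B and C show the group only.

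Estimated counts were rounded to whole numbers, filtered with filterByExpr (12620 genes kept), scaled by TMM and fitted by edgeR's quasi-likelihood model with glmQLFTest (edgeR 4.0.16, R 4.3.3), with Benjamini-Hochberg adjustment over all genes tested. Transcript usage was tested with diffSpliceDGE over 8348 genes. The scripts were tested on simulated data. Exact permutation tests were two-sided. Intervals and standard errors do not cover errors of the counting tool. GC content and length are those of the longest coding transcript in GENCODE 29, known for 12570 of the genes tested (99.6%). Each library's spline (5 degrees of freedom) on these was removed as an offset. Gene coordinates are from GENCODE 29 on GRCh38. The alternatives were RLE or no scaling, 2 other count filters, DESeq2 1.42.0, limma-voom (limma 3.58.1), GC and length offsets, leaving out each library, and, added after seeing the data, a block by column letter and both offsets without sh-NC replicate 2. The members and the gene lists were chosen with earlier results of these data known. Given in full are, in each family, up to 8 members per direction past the unadjusted rule, the 2 members with the highest mean count, and IFT88, BBS4, CEP290, CEP55 and CEP164 for their textbook roles. Other genes were named after their values were seen. Of the members, 1 enters the counts and medians but is not reported by name or in the figures here.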

Additional observations from a re-analysis of the deposited data

How the results depend on the processing

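The count of members higher under the unadjusted rule was 4 of 14 (IFT), 3 of 8 (BBS) and 3 of 36 (CEP), against 10.1% of all genes tested. With the GC correction, with GC and length correction, and with the latter without sh-NC replicate 2 (added after seeing the data), it was 0 in each family, and in the last of these 1 CEP gene was lower. Of the 12795 genes tested in that last fit, 281 were higher and 149 lower. With library size only, which moved the median log2 fold change of all genes to 0.16, the count of higher members was 2 for IFT and 1 for CEP. DESeq2 gave 5 CEP genes and no filter 6. Over all genes, the higher genes numbered 1272 in the main fit, 1016 with library size only and 1279 with DESeq2, each of 12620 tested. With no filter they numbered 1528 of 16283. Leaving out each library in turn gave 1 to 4 IFT, 1 to 3 BBS and 0 to 9 CEP genes. The CEP count was 0 without sh-NC replicate 2, 1 without library A or B, and 9 without library C. The count over all genes also moved. It was 616 of 12795 without sh-NC replicate 2, and 424 of 12716, 863 of 12761 and 1722 of 12743 without libraries A, B and C. Without sh-NC replicates 1 and 3 it was 1687 of 12741 and 1565 of 12736. At an adjusted p, DESeq2 called 2 IFT genes.

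The IFT median was 0.14 with library size only and -0.074 to 0.25 over the left-out libraries, highest without sh-NC replicate 2. The BBS median was 0.28 with GC correction and 0.26 with GC and length correction without sh-NC replicate 2. The CEP median was -0.089 with GC and length correction and -0.20 with that correction without sh-NC replicate 2. Over all genes, 2 were called at an adjusted p. The count was 574 with DESeq2, 5 with GC correction, 166 with GC and length correction, 289 with that correction without sh-NC replicate 2, 31 with no filter, 0 with library size only, and 0 to 23 over the left-out libraries. The split of the unadjusted rule over all genes, 1272 higher and 193 lower, became 276 and 314 with GC correction and 287 and 263 with GC and length correction.

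The sign of the log2 fold change turned in at least one alternative for 32 of the 58 members, among them 7 of the 20 members given in full. With GC correction the values were -0.16 (IFT43), 0.013 (BBS1), -0.76 (CEP20), -0.091 (CEP290) and -0.46 (CEP55). With GC and length correction they were 0.0042 (BBS1), -0.46 (CEP20), -0.21 (CEP290) and -0.32 (CEP55), and without sh-NC replicate 2 as well -0.0027 (IFT43), -0.24 (CEP20), -0.22 (CEP290) and -0.45 (CEP55). IFT52 had 0.066 with library size only. Over the left-out libraries IFT43 ranged from -0.12 to 0.23, IFT52 from -0.36 to 0.25, CEP20 from -0.10 to 0.28 and CEP164 from -0.26 to 0.21. The causes were not tested. The 10 higher genes had a log2 fold change above 0 in every alternative run. They were chosen for a log2 fold change over 1 in the main fit, and the alternatives used the same libraries. Their sign is therefore no independent check, and the share of all genes chosen in this way that kept it is not given here. Transcript usage called 0 members in every alternative, while all genes called numbered 8, 5 to 12 over the left-out libraries, 0 with at least 10 counts in every library and 43 with the gene-level F test. The replicate numbers of the labels could not be paired, since the columns of libraries B and C carry none. A replicate block by the letter that ends each column name (added after seeing the data) gave 861 genes at an adjusted p, 1 of them an IFT gene (IFT74), and 7 CEP genes higher under the unadjusted rule, with 4 IFT and 3 BBS genes. Of all 12620 genes tested, 1525 were higher by that rule in the same fit. The correlation of deviations from the group means was 0.38 for letter A, -0.05 for B and -0.32 for C, and not every library correlated best with its own letter. Deviations within a group of 3 depend on one another, so these correlations cannot decide whether libraries of a letter were prepared together. Counts were low in genes such as CEP112, CEP152 and BBS12, and the part of counting error in their standard errors was not tested.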

Other observations

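Genes that act upstream or downstream of the cilium were measured in the same fit. Of 8 RFX family and multiciliated-cell transcription factors, 1 was higher and 1 was lower under the unadjusted rule. Of all genes tested, 10.1% were higher and 1.53% lower by it. RFX3, which binds X-boxes, had normalized counts of 11.7, 5.43 and 11.6 in sh-NC against 44.8, 25.6 and 19.0 in shRBM10, with every shRBM10 library above every sh-NC library and a log2 fold change of 1.58 ± 0.45. FOXJ1, the master regulator of motile cilia, had 21.6, 29.9 and 17.9 in sh-NC against 4.07, 2.85 and 1.9 in shRBM10, with every shRBM10 library below every sh-NC library, a log2 fold change of -2.91 ± 0.46 and an adjusted p of 0.0894 in edgeR. Counts of both genes were low. Of 7 motile cilium markers that could be tested, FOXJ1 was the only 1 past the rule before correction. RSPH1, a radial spoke protein, had 42.9 ± 5.68 in sh-NC against 79.1 ± 9.38 in shRBM10. TEKT1, SPAG6, RSPH4A and CCDC39 had at most 3 counts in any library. With GC and length correction, RFX3 had a log2 fold change of 0.75, FOXJ1 -2.58 and RSPH1 1.14. In that fit 1 of the 7 motile cilium markers was higher by the rule and 1 was lower, against 2.27% and 2.08% of all genes.

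Of 8 Hedgehog pathway genes tested, 0 passed the rule. PTCH1, the receptor and a target of the pathway, had 143 ± 72.4 in sh-NC against 218 ± 15.9 in shRBM10 and a log2 fold change of 0.59 ± 0.41. SMO and GLI3 had at most 1 count in any library. Of 15 G2/M markers, 0 passed the rule, and 6 had an unadjusted p under 0.05 at any fold in edgeR (24.3% of all genes did). The groups did not overlap in 5 of the 15, each lower in shRBM10, against 16.2% of all genes. CDC20 (-0.92), AURKB (-0.76), UBE2C (-0.75) and PLK1 (-0.67) had log2 fold changes below 0, and BUB1 (0.96) and HMMR (0.68) above 0. In all, 6 of the 15 lay above 0 and 9 below, with a median of -0.27. With GC correction 2 lay above 0, the median was -0.45 and 2 were lower by the rule (2.49% of all genes were). With GC and length correction 3 lay above 0, the median was -0.35 and 0 passed the rule. The part of cell cycle distribution in the values of the centrosomal genes was not tested.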
